A study of Mus musculus with 12 samples.

Results

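The interleukin-1 (IL-1) family of cytokines, with its receptors and antagonists, was examined in brain tissue after traumatic brain injury (TBI). The 10 members, Il1a, Il1b, Il18, Il33, Il1rn, Il1r2, Il18bp, Il1r1, Il1rap and Il1rl1, were chosen by symbol and matched to mouse Ensembl identifiers, 10 of 35697 identifiers in the count table of 2018 and 10 of 55637 in that of 2022. All mice were wild-type adult male C57BL/6J. The sham group had the same surgery with no impact, and the TBI group was taken 7 days after controlled cortical impact, in which a piston deforms the exposed cortex. A TBI group of 2022, also taken at 7 days, served as the control of a zileuton group, which received that inhibitor of 5-lipoxygenase, the enzyme that starts leukotriene synthesis, injected into the peritoneum once injury had been made, with corn oil as solvent and a daily dose of 10 mg/kg. The study's text calls the control of the drug a vehicle group, whereas its labels give only TBI at 7 days. The source labels of the zileuton samples read 7, 8 and 9 days, but all 3 library names and the study's text give 7 days, so the time of these samples is in doubt. Each group had 3 libraries. Groups were compared only within a batch label, 2018 or 2022.

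Interleukin-1 alpha and beta bind one receptor, Il1r1, which signals only once the accessory protein Il1rap joins it. Il1rn occupies Il1r1 without signalling, and Il1r2 binds the ligands but lacks the signalling domain and so acts as a decoy. Interleukin-18 is held in check by the soluble binding protein Il18bp, and interleukin-33, a nuclear protein of astrocytes and oligodendrocytes released on damage, signals through Il1rl1 (ST2) together with Il1rap. In injured brain these cytokines are known mainly from microglia, infiltrating myeloid cells and damaged glia.

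Promoter sequence is shown for the agonists Il1a and Il1b and the antagonist Il1rn, because these 3 genes of chromosome 2 were all higher after TBI. Each RefSeq window of GRCm38.p6 holds 300 bases, from 250 before to 50 after an annotated start, 5′ to 3′ on the gene's strand, and capitals mark matches to the AP-1 motif TGANTCA.
Il1a, chr2:129309923-129310222, minus strand: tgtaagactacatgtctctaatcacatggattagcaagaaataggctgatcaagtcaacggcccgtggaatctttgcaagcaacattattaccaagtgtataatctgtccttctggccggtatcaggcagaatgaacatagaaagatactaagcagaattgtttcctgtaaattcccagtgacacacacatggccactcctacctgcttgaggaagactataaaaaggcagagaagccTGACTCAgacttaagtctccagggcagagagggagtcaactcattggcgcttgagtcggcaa
Il1b, chr2:129371090-129371389, minus strand: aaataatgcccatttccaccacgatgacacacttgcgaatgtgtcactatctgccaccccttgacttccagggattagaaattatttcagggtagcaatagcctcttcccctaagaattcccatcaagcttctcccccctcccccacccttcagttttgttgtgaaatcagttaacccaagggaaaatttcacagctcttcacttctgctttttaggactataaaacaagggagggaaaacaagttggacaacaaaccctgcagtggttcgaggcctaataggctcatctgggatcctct
Il1rn, chr2:24336610-24336909, plus strand, the most upstream of its windows: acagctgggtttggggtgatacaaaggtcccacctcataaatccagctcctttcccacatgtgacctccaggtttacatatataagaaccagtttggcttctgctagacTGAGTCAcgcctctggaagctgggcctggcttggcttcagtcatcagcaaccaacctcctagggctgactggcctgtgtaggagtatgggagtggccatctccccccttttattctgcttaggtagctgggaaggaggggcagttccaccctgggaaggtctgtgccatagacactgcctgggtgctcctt
The Il1a match began 12 bases before the start and the Il1rn match 141 bases before it. The 10 members had 15 windows in all, which were searched on both strands for TGANTCA, for the C/EBP motif TTGCNNAA, for the PU.1 core GAGGAAGT and for the NF-kappaB consensus, matches to different motifs being counted separately where they overlap. Of 32817 windows of all genes, 7.81% held the AP-1 motif, 10.8% the C/EBP motif, 3.20% the PU.1 core and 8.46% the NF-kappaB consensus. Each share is for a single motif in a single window. The share of all genes with any of these motifs in any window was not computed, so the count that follows cannot be set beside one. Of the members, 6 had a match in any window: besides Il1a and Il1rn, a C/EBP match lay in a window of Il18bp, Il1r1, Il1rl1 and Il33, and Il1r1 had an NF-kappaB match in its other window. The AP-1 match of Il1rn lay in the printed window alone, and its other windows held no match to any of the motifs. No match was found in the windows of Il1b, Il1r2, Il18 and Il1rap, which says only that these letters are not in them.

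Library totals were 42929862 to 48684674 counts in the sham and TBI libraries and 27845562 to 35453257 in those of 2022, in which 13.7% of values were not whole. Even numbers made up 63.6% of the counts between 1 and 20 in the table of 2018, and a count may therefore not stand for a separate molecule. The labels were checked with Gfap, a marker of reactive astrocytes, which stood at 141 to 221 CPM (counts per 1000000, with library sizes scaled by the trimmed mean of M values) in sham and 2241 to 2616 CPM in TBI. Among the 3 TBI libraries, TBI 3 was the highest for 7 of the 10 members. Among the zileuton libraries, zileuton A was the highest for 9 of the 10. The share of all genes that were highest in these libraries was not computed, so neither count can be set beside one. Of the members, 7 overlap the span of another annotated gene in GENCODE M21 (the exceptions are Il1rl1, Il1rn and Il33). Whether these overlaps lie in exons was not examined. Whether counting used strand was not given in the sources used here, so reads from any exon stretch shared by a member and another gene cannot be told apart. In bulk tissue, fewer cells of a type and less RNA per cell cannot be told apart either.

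Per transcript length, the members spanned a wide range in sham brain. Il33 had the highest level at 13.8 ± 0.327 FPKM (SD, n = 3), followed by Il18 at 12.7 ± 1.10 FPKM, and these levels overlapped between libraries. Il1rap (3.86 ± 0.0650 FPKM), Il18bp (1.31 ± 0.344 FPKM) and Il1r1 (0.602 ± 0.215 FPKM) came next without overlap. Il1r2, Il1a, Il1b and Il1rl1, at mean levels from 0.238 down to 0.0381 FPKM, overlapped from each to the next, and Il1rn was last at 0.00499 FPKM, without overlap. In the TBI libraries Il33 (26.1 ± 5.65 FPKM) and Il18 (16.0 ± 0.665 FPKM) still led and no longer overlapped, whereas Il1b had moved to the fifth place at 2.81 ± 1.95 FPKM and Il1rn to the eighth at 1.07 ± 0.724 FPKM. From Il1rap down to Il1a, each member of the TBI order overlapped the next, and Il1rl1 was last at 0.126 ± 0.0786 FPKM.

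To find which members changed with injury, the TBI and sham counts were compared by the quasi-likelihood test of edgeR, with Benjamini-Hochberg adjustment over all genes tested. All 10 members passed the filter on low counts. Of them, 7 rose and none fell at an adjusted p under 0.05: the ligands Il1a, Il1b and Il33, the antagonist Il1rn, the decoy Il1r2, the binding protein Il18bp and the receptor Il1r1. Among the 19536 genes tested, 28.0% passed, 16.8% as higher and 11.2% as lower. An unadjusted p under 0.05 was reached by 9 of the members and by 39.6% of all genes. For 8 members every TBI library lay above every sham library, and of all genes 44.4% had no overlap between the groups in either direction. The median log2 fold change of the members was 1.66, beside 0.0166 for all genes. Il1a, Il1b, Il1r1, Il1r2 and Il1rn are among the cytokine and receptor genes that the study itself listed from these libraries, so their direction is not independent evidence.

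**Figure D1:**
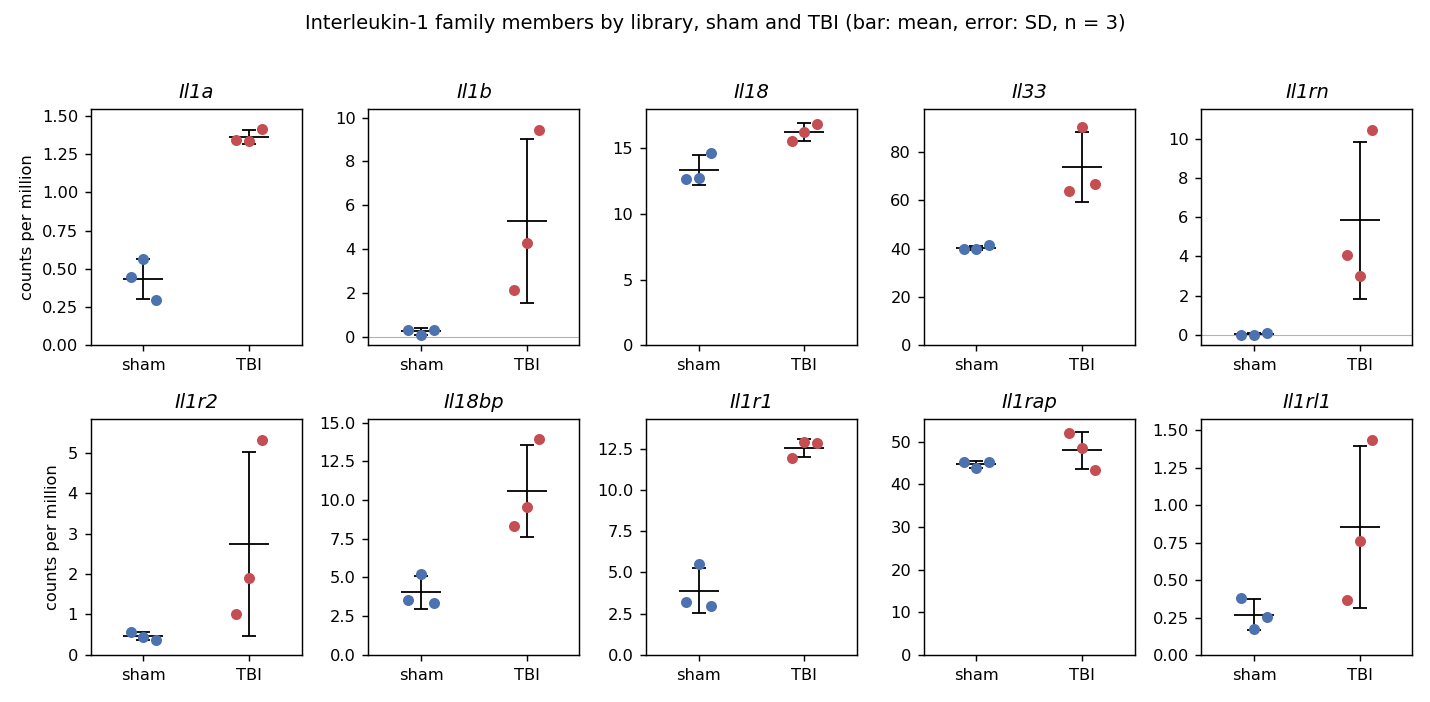
CPM (vertical axes, linear, each with its own range) of the 10 members in the 3 sham and 3 TBI libraries. Points are libraries, long bars the mean and error bars the SD (n = 3). For Il1b and Il1rn every TBI library lies above every sham library, and for Il1rap and Il1rl1 the groups overlap.

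Among the ligands, Il1b had the largest fold change. Il1b stood at 0.333, 0.0865 and 0.337 CPM in the sham libraries and at 2.15, 4.27 and 9.42 CPM in the TBI libraries. The groups did not overlap, and the TBI libraries spread over a wider range than the sham ones. Its log2 fold change was 4.37 (SE 0.644, 95% interval 2.91 to 5.83, edgeR adjusted p = 0.00137), a fold of 20.7. Without TBI 3, the highest library, the log2 fold change of Il1b was 3.66.

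Il1a, the IL-1 ligand that is active without cleavage, rose less and more evenly. Il1a was at 0.444, 0.562 and 0.295 CPM in sham and at 1.34, 1.33 and 1.42 CPM in TBI. The TBI libraries lay close together and well apart from the sham libraries. Its log2 fold change was 1.65 (SE 0.336, edgeR adjusted p = 0.00696), a fold of 3.14.

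Il33, the alarmin, was the member with the highest level per transcript length and rose by a smaller factor. Il33 read 40.0, 39.9 and 41.4 CPM in sham and 64.0, 90.6 and 66.9 CPM in TBI, with TBI 2 the highest. The groups did not overlap. For Il33 the log2 fold change was 0.87 (SE 0.128, edgeR adjusted p = 0.00135), a fold of 1.83.

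Il18, the fourth ligand, did not pass the test. It read 12.7, 12.7 and 14.6 CPM in sham and 15.6, 16.3 and 16.9 CPM in TBI, so that every TBI library lay above every sham library by a small margin. The log2 fold change of Il18 was 0.28 (SE 0.107, 95% interval 0.04 to 0.52, edgeR adjusted p = 0.0818). It passed in 4 of 13 other processing settings and in none of the 6 fits that left out 1 library, with log2 fold changes from 0.18 to 0.33 over the settings and the adjusted p from 0.0206 to 0.251.

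The antagonist Il1rn was close to undetected in sham brain. Its counts were 0, 0 and 4 in the sham libraries and 200, 147 and 451 in the TBI libraries, that is 0, 0 and 0.0842 CPM against 4.06, 3.02 and 10.5 CPM. All sham counts came from sham 3, and TBI 3 was the highest library. Summed over the libraries, 4 against 798 counts gave a ratio of 196 with a 95% exact binomial interval of 76.4 to 723, or of 54.0 to 1630 if 2 counts stand for 1 read pair. These intervals cover counting error only. The fitted log2 fold change of Il1rn was 7.54 (SE 0.856, edgeR adjusted p = 0.000329), and 6.82 without TBI 3. Without sham 3 no sham count of Il1rn remained, and the fitted value of 11.07 is then no bound.

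The decoy receptor Il1r2 spread widely between the TBI libraries. It read 0.577, 0.432 and 0.379 CPM in sham and 1.02, 1.91 and 5.32 CPM in TBI. The groups did not overlap, and TBI 3 stood far above the others. Its fitted log2 fold change was 2.56 (SE 0.587, edgeR adjusted p = 0.0119), and 1.66 without TBI 3 (adjusted p = 0.0228). Without sham 3 it was 2.41, and the call was lost (adjusted p = 0.0515). Il1r2 was called in 10 of 13 other settings, in which its adjusted p ranged from 1.39e-05 to 0.279.

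Il18bp, which neutralises interleukin-18, rose although its ligand did not pass. It was at 3.53, 5.25 and 3.35 CPM in sham and at 8.31, 9.54 and 14.0 CPM in TBI, without overlap. Il18bp had a log2 fold change of 1.39 (SE 0.248, edgeR adjusted p = 0.00365), a fold of 2.62. Il18bp lies on the strand opposite to Numa1 and overlaps it.

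Of the 3 receptor genes, Il1r1 alone was called. Il1r1, the signalling receptor for both IL-1 ligands, was at 3.22, 5.49 and 2.99 CPM in sham and at 11.9, 12.9 and 12.8 CPM in TBI. The TBI libraries lay close together and did not overlap the sham libraries. The log2 fold change of Il1r1 was 1.69 (SE 0.229, edgeR adjusted p = 0.000884), a fold of 3.22, and Il1r1 was called in all 13 other settings and in all 6 fits that left out 1 library.

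Il1rap, the accessory chain shared by the IL-1 and interleukin-33 receptors, read 45.1, 43.7 and 45.1 CPM in sham and 51.9, 48.5 and 43.4 CPM in TBI, so the groups overlapped. Its log2 fold change was 0.10 with a 95% interval of -0.09 to 0.30 (edgeR adjusted p = 0.409). The upper end of that interval lies below the lower end for Il1r1, which was 1.17.

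Il1rl1, the interleukin-33 receptor, was the member with the lowest level in TBI. Its counts were 17, 8 and 12 in sham and 18, 37 and 62 in TBI, or 0.377, 0.173 and 0.253 CPM against 0.366, 0.759 and 1.44 CPM. TBI 1 fell within the sham range, so the groups overlapped. The log2 fold change of Il1rl1 was 1.66 (SE 0.567, edgeR adjusted p = 0.0578), and 1.07 without TBI 3 (adjusted p = 0.217). It was called in 2 of 8 other settings and in 1 of the 6 fits without 1 library (without TBI 1, adjusted p = 0.0231). Counts per gene do not separate the membrane form of Il1rl1 from its soluble form.

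**Figure D2:**
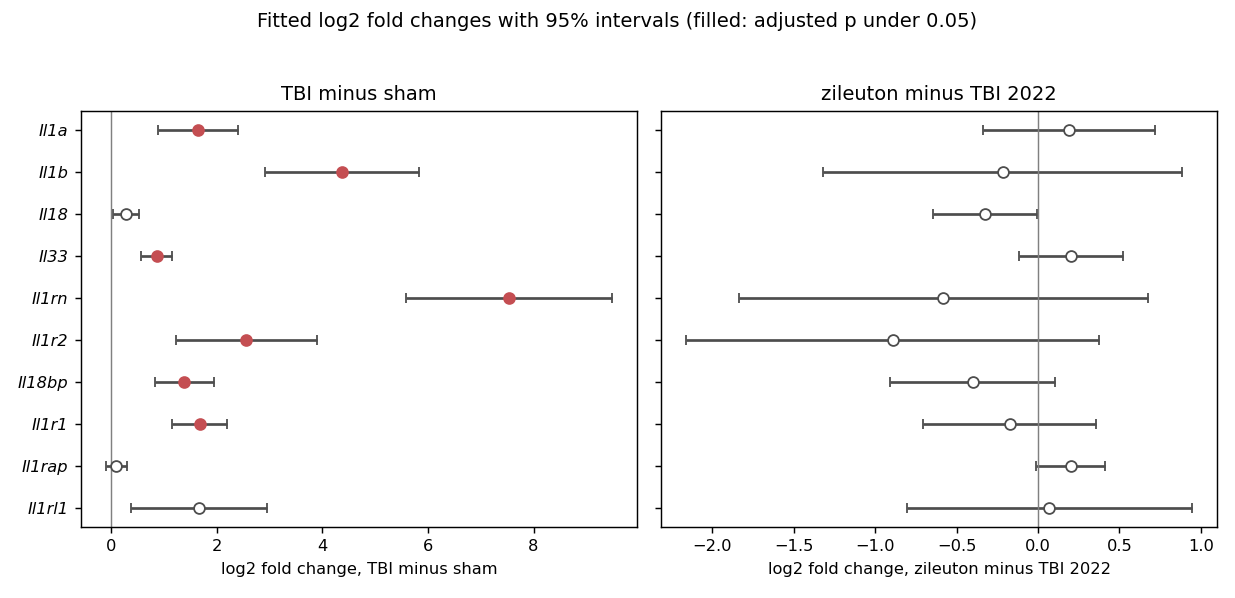
Fitted log2 fold change (horizontal axis, one range per panel) of each member with its 95% interval, for TBI minus sham on the left and zileuton minus TBI 2022 on the right. Filled points passed an adjusted p of 0.05, which 7 members did in the left panel and none in the right panel.

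Genes that act with the members were described from 4 lists. Of 11 other IL-1 family genes, 9 were in the table of 2018 and 7 were tested, of which 5 rose and 2 fell (median log2 fold change 1.58, also with the gene absent from sham set at its lower bound). Il18rap and Il18r1, the chains of the interleukin-18 receptor, rose by 4.91 (SE 1.01, edgeR adjusted p = 0.00738) and 2.66 (SE 0.562, adjusted p = 0.00822) on the log2 scale. Il18rap rested on 2 sham counts, all in sham 2, and its log2 fold change was 4.23 without TBI 3 and a fitted 7.57 without sham 2. Sigirr, a family member that dampens IL-1 signalling, rose by 1.58 (SE 0.308, adjusted p = 0.00559). Il36g, an epithelial IL-1 family ligand, had no count in any sham library and 20, 55 and 50 counts in TBI, at least 13.9-fold higher against a floor of 3 counts in each sham library and at least 6.93-fold against a floor of 6. Il1rapl1 and Il1rapl2, accessory-protein-like receptors of neurons that were named after their values were seen, were the 2 that fell, by 0.89 (SE 0.0937, adjusted p = 0.000211) and 0.81 (SE 0.169, adjusted p = 0.00777).

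Of the 7 genes for maturation and release of the cytokines, all tested, 6 rose and none fell (median log2 fold change 2.20). These 6 included Casp4, the caspase of the non-canonical inflammasome (4.30, SE 0.448, edgeR adjusted p = 0.000202), Gsdmd, which forms the release pore (2.35, SE 0.218, adjusted p = 0.000106), Nlrp3, an inflammasome sensor (2.25, SE 0.316, adjusted p = 0.00107) and Pycard, its adaptor (2.20, SE 0.200, adjusted p = 9.35e-05). For Casp4 the log2 fold change was 5.11 without sham 3. Nlrc4, another inflammasome gene, was not called (log2 fold change 0.20, SE 0.334, adjusted p = 0.698).

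The receptor signalling chain changed in part. Of its 16 genes, 6 rose, 1 fell and 9 did not pass, and the median log2 fold change was 0.27. Irak4, the kinase next to the receptor (2.04, SE 0.185, edgeR adjusted p = 9.35e-05), Irak3, a restraining member of that kinase family (1.70, SE 0.305, adjusted p = 0.00371), the adaptor Myd88 (1.32, SE 0.228, adjusted p = 0.00313) and Nfkb1 (0.96, SE 0.0929, adjusted p = 0.000133) rose. Tollip, a negative regulator named after its values were seen, fell by 0.39 (SE 0.0718, adjusted p = 0.00433). The kinase Map3k7, the most highly expressed gene not called, stood at 59.2 CPM in sham and 59.9 CPM in TBI.

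Of 14 genes that respond to IL-1, 13 were tested and 10 rose, with none lower (median log2 fold change 2.71, also with Cxcl2 at its bound). The iron-binding protein Lcn2 rose by 6.78 (SE 0.738, edgeR adjusted p = 0.000257), the acute-phase gene Saa3 by 5.91 (SE 0.339, adjusted p = 1.22e-05) and the monocyte chemokine Ccl2 by 5.85 (SE 0.920, adjusted p = 0.00194). The log2 fold change of Ccl2 was 5.11 without TBI 3, 5.26 without sham 3 and a fitted 9.94 without sham 2, which held all its sham counts. That of Lcn2 was 7.54 without sham 1 and 6.13 without TBI 2. Cxcl2, a neutrophil chemokine, had no sham count and 70, 62 and 192 counts in TBI, at least 36.8-fold higher against a floor of 3 counts in each sham library and at least 18.4-fold against a floor of 6. Ptgs2, the inducible cyclooxygenase, was not called (log2 fold change -0.17, SE 0.175, adjusted p = 0.516).

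**Figure D3:**
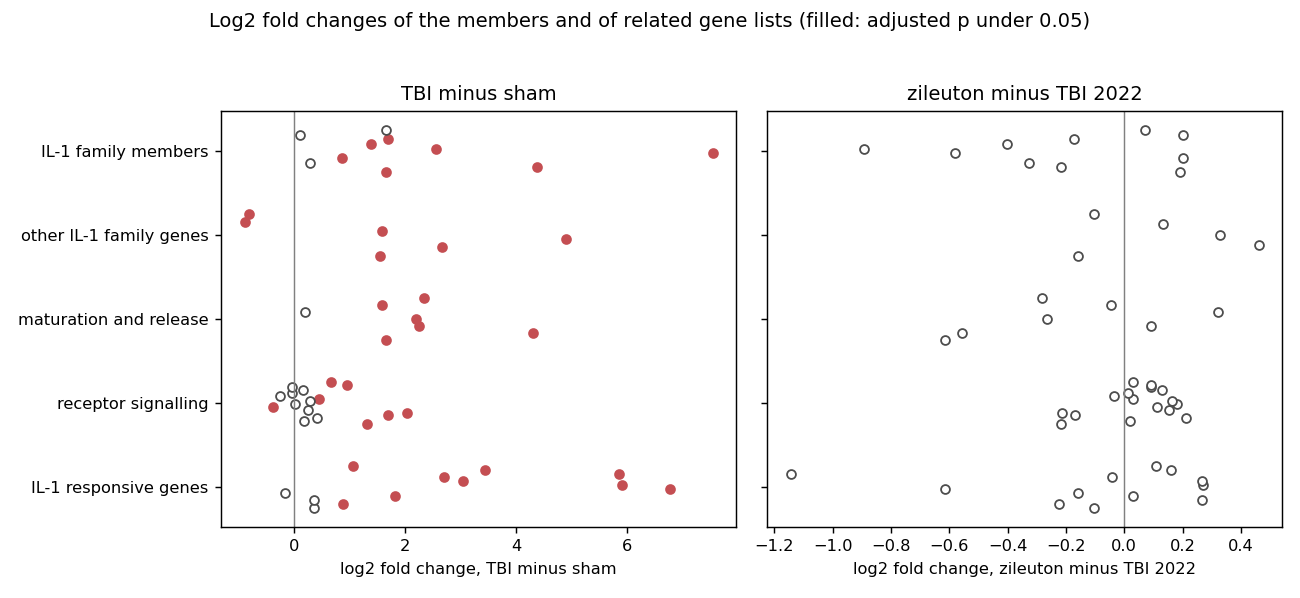
Log2 fold change (horizontal axis, one range per panel) of every tested gene of the members and of the 4 related lists (rows), for TBI minus sham on the left and zileuton minus TBI 2022 on the right. Filled points passed an adjusted p of 0.05. Il36g and Cxcl2, without a sham count, are left out of the left panel, and no point of the right panel is filled.

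Markers of several cell types moved with the members. The summed level of 8 markers of activated microglia and macrophages was 37.1 to 39.8 CPM in sham and 1138 to 2449 CPM in TBI, and that of 10 neutrophil markers was 0.648 to 1.49 CPM in sham and 17.5 to 67.0 CPM in TBI. The 6 monocyte markers summed to 3.40 to 3.85 CPM in sham and 27.4 to 53.7 CPM in TBI. In all 3 lists TBI 3 was the highest library, as it was for 7 of the 10 members. TBI 3 was also the highest for markers of homeostatic microglia, mast cells, group 2 innate lymphoid cells, and fibroblasts and meninges. The 5 markers of fibroblasts and meninges summed to 130 to 134 CPM in sham and 182 to 754 CPM in TBI, and all 5 were called higher. Of the neutrophil markers 6 of 10 were tested and all 6 were called higher, while Ly6g, Camp and Cxcr2 were at 0 in every sham library. All 8 markers of activated microglia and macrophages and all 6 monocyte markers were called higher, with Ms4a4c at 0 in every sham library. The 8 neuronal markers summed to 10870 to 11044 CPM in sham and 6510 to 9106 CPM in TBI, where 3 were called lower. The 6 mast cell markers, a cell type that carries Il1rl1, summed to 0.173 to 0.466 CPM in sham and 1.77 to 7.92 CPM in TBI, with Fcer1a and Ms4a2 at 0 in every sham library. Only 1 of these 6 passed the filter on low counts, and it was called higher. The 6 markers of group 2 innate lymphoid cells summed to 2.03 to 2.15 CPM in sham and 3.80 to 7.64 CPM in TBI. Of these, Gata3 was at 0 in every sham library and Il13 in every TBI library. Only Il7r, of the 3 tested, was called higher. Of the cells known for Il33, the 8 astrocyte markers summed to 4693 to 5317 CPM in sham and 8451 to 8720 CPM in TBI (6 called higher), and the 8 oligodendrocyte markers to 5450 to 6119 CPM in sham and 6334 to 11524 CPM in TBI (5 called higher). TBI 2 was the highest library of both lists, as it was for Il33 and Il1r1, and also for the endothelial and the T and NK cell markers. The 8 markers of homeostatic microglia summed to 225 to 263 CPM in sham and 625 to 809 CPM in TBI, and all 8 were called higher. The sums of the 8 markers of T and NK cells overlapped, at 8.30 to 21.7 CPM in sham and 4.21 to 29.5 CPM in TBI. Cd4 made up most of these sums (means 12.5 CPM in sham and 12.3 CPM in TBI). Of the 3 tested, Cd4 and Trac were not called. Cd3g, on 4 sham and 54 TBI counts, was called higher (log2 fold change 3.64, SE 0.962, edgeR adjusted p = 0.0219). Cd8a and Klrb1c were at 0 in every sham library. The part of these cells in the members' differences was not tested.

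Ratios of 2 members within a library need no scaling between libraries. The log2 ratio of Il1rn to Il1b, each count plus 1, was -4.00, -2.32 and -1.77 in sham and 0.91, -0.50 and 0.15 in TBI, so counts of the antagonist were below those of the agonist in every sham library and on either side of them in TBI. The genes differ in length, and per transcript length Il1rn (mean 1.07 FPKM) was below Il1b (mean 2.81 FPKM) in each TBI library. The difference in means of the Il1rn to Il1b ratio was 2.88, and it was 2.23 without sham 1 and 3.35 without sham 3, the sham values resting on 0, 0 and 4 counts of Il1rn. The log2 ratio of Il18bp to Il18 was -1.84, -1.27 and -2.12 in sham and -0.90, -0.77 and -0.27 in TBI, a difference of 1.10. For both ratios the groups did not overlap and the two-sided exact permutation p was 0.1, the smallest that 3 against 3 libraries allow (0.267 adjusted over 8 ratio tests). The ratio of decoy to signalling receptor, Il1r2 to Il1r1, overlapped between groups, with a difference of 0.47 (exact permutation p = 0.6, adjusted 0.686) that was -0.15 without TBI 3. The ratio of Il1rl1 to its ligand Il33 overlapped too, with a difference of 0.61 (exact permutation p = 0.5, adjusted 0.686) that was 0.07 without TBI 3.

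**Figure D4:**
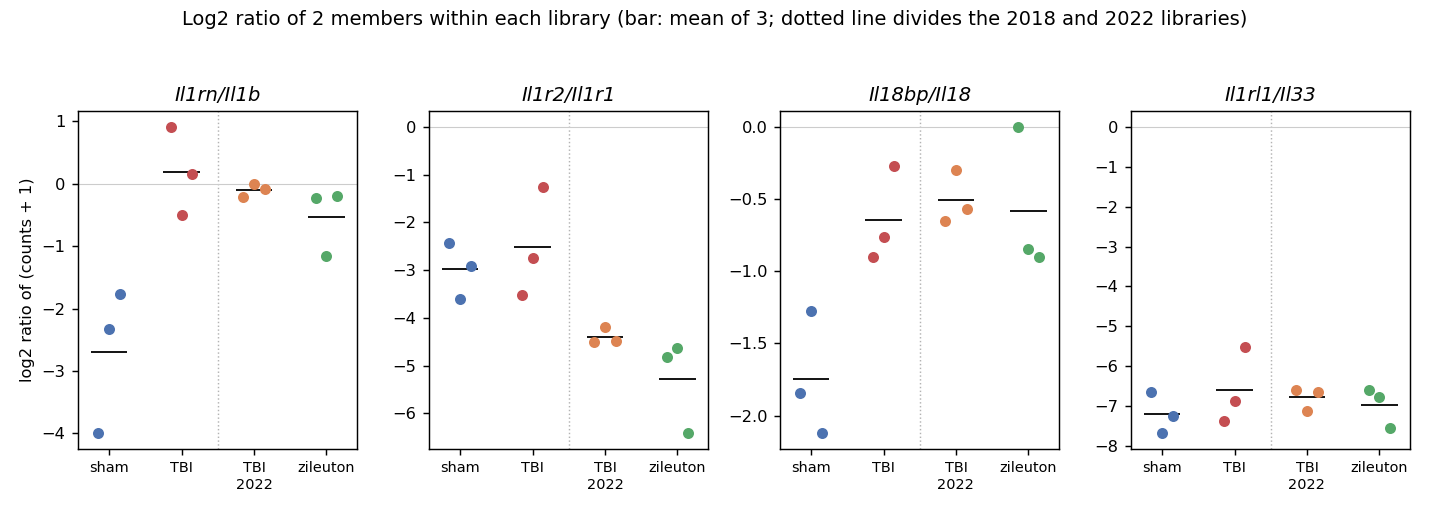
Log2 ratio of counts plus 1 (vertical axes, one range per panel) of 4 pairs of members in each library of the 4 groups. Points are libraries, bars the mean of 3, and the dotted line divides the batch labels 2018 and 2022. Il1rn/Il1b and Il18bp/Il18 do not overlap between sham and TBI.

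To ask whether inhibition of 5-lipoxygenase altered the family after injury, the zileuton and TBI 2022 groups were compared in the same way. No member passed the test: 0 of 10 were called, beside 0% of the 17363 genes tested by edgeR, whose smallest adjusted p was 0.185. An unadjusted p under 0.05 was reached by 1 member and by 6.83% of all genes (1186 genes), and DESeq2 called 27 genes, none of them a member. The groups did not overlap for 1 member, against 13.6% of all genes. The fitted values were higher in the zileuton group for 4 members and lower for 6, with a median log2 fold change of -0.20 beside 0.0025 for all genes. The fold change rose with gene length across genes (Spearman's rho 0.378, a description over genes, which are not independent). With that trend removed, none of the members had an unadjusted p under 0.05. None had it either with DESeq2, without TBI 2022 B or without zileuton C. The number was 2 with limma at either pseudocount (1 or 0.1) and without TBI 2022 A, TBI 2022 C or zileuton B. Without zileuton A it was 4, where 1909 of all genes had such a p.

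**Figure D5:**
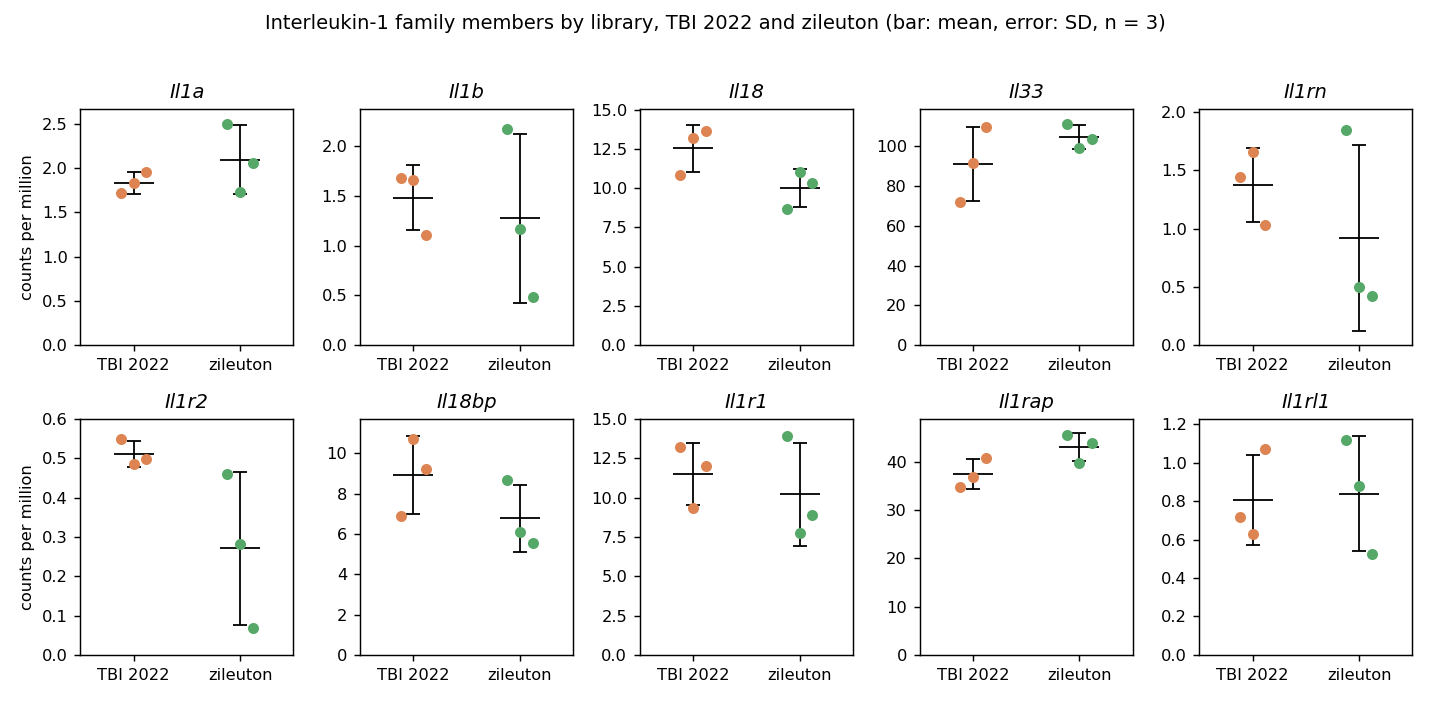
CPM (vertical axes, linear, each with its own range) of the 10 members in the 3 TBI libraries of 2022 and the 3 zileuton libraries. Points are libraries, long bars the mean and error bars the SD (n = 3). The groups overlap for every member but Il1r2.

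For the ligands, intervals included changes in either direction for 3 of the 4. Il1b was at 1.68, 1.66 and 1.11 CPM in the TBI 2022 libraries and at 2.17, 1.16 and 0.488 CPM in the zileuton libraries, which held both the highest and the lowest value of the 6. Its log2 fold change was -0.22 (95% interval -1.32 to 0.89, edgeR adjusted p = 0.925), -0.83 without zileuton A and 0.17 without zileuton C. Il1a read 1.71, 1.83 and 1.96 CPM against 2.50, 1.73 and 2.06 CPM with zileuton (log2 fold change 0.19, 95% interval -0.34 to 0.72, adjusted p = 0.854).

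Il18 had the smallest unadjusted p of the members. It read 10.8, 13.2 and 13.6 CPM in TBI 2022 and 8.68, 11.0 and 10.4 CPM with zileuton, with 1 zileuton library inside the control range. The log2 fold change of Il18 was -0.33 (95% interval -0.65 to -0.004, edgeR adjusted p = 0.713). Il33 read 72.3, 91.4 and 109.8 CPM in TBI 2022 and 111.1, 99.4 and 103.8 CPM with zileuton (log2 fold change 0.20, 95% interval -0.12 to 0.52, adjusted p = 0.753). TBI 2022 A, B and C stood in the same order for the oligodendrocyte markers, which summed to 4344, 7787 and 9634 CPM in them and to 9027, 9100 and 8804 CPM with zileuton. That order also held for markers of homeostatic microglia, of activated microglia and macrophages, of monocytes and of group 2 innate lymphoid cells. With zileuton, Il33 was highest in A and lowest in B, whereas the oligodendrocyte markers were highest in B and lowest in C. The astrocyte markers followed the order of Il33 with zileuton but not in TBI 2022. Without TBI 2022 A, the lowest for Il33 and for all these markers, the log2 fold change of Il33 was 0.06. The part of any of these cells in the Il33 values was not tested.

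The antagonist, decoy and binding protein all had lower fitted values with zileuton, and none passed. Il1rn counts were 42, 58 and 29 in TBI 2022 and 56, 16 and 12 with zileuton, or 1.44, 1.66 and 1.03 CPM against 1.84, 0.503 and 0.418 CPM, so that zileuton A lay above all controls and the other two below them. For Il1rn the fitted value was -0.58 on the log2 scale (95% interval -1.84 to 0.68, edgeR adjusted p = 0.813), and -1.57 without zileuton A. Il1r2, on 16, 17 and 14 counts against 14, 9 and 2, was the member without overlap, at 0.549, 0.486 and 0.499 CPM in TBI 2022 and 0.460, 0.283 and 0.0697 CPM with zileuton. Its log2 fold change was -0.89 (95% interval -2.16 to 0.37, adjusted p = 0.735). Zileuton C, with 2 counts of Il1r2, was under the floor of 3 counts, and without it the value was -0.45, whereas it was -1.49 without zileuton A.

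Il18bp read 6.89, 10.7 and 9.20 CPM in TBI 2022 and 8.68, 6.10 and 5.54 CPM with zileuton (log2 fold change -0.40, 95% interval -0.91 to 0.11, edgeR adjusted p = 0.721). The receptor Il1r1 read 13.2, 9.35 and 11.98 CPM against 13.9, 7.73 and 8.92 CPM (log2 fold change -0.17, 95% interval -0.71 to 0.36, adjusted p = 0.872). In both genes zileuton A lay inside or above the control range and the other two zileuton libraries below it. Il1rap read 34.8, 36.8 and 40.8 CPM in TBI 2022 and 45.6, 39.8 and 43.8 CPM with zileuton (log2 fold change 0.20, 95% interval -0.01 to 0.41, adjusted p = 0.713). Il1rl1 had 21, 22 and 30 counts against 34, 28 and 15 (log2 fold change 0.07, 95% interval -0.81 to 0.95, adjusted p = 0.969).

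Zileuton A was also the highest zileuton library for the myeloid markers. The neutrophil markers summed to 4.71 to 7.23 CPM in TBI 2022 and to 8.58, 2.20 and 1.71 CPM in zileuton A, B and C, with Ly6g and Elane at 0 in all 6 libraries. The monocyte markers summed to 18.9 to 31.1 CPM in TBI 2022 and to 30.5, 15.0 and 16.3 CPM in these zileuton libraries, and the markers of activated microglia and macrophages to 1269 to 2719 CPM and to 1552, 1030 and 885 CPM. For the last 2 lists zileuton A lay inside the TBI 2022 range. It was also the highest of its group for other lists, among them fibroblasts and meninges (226, 121 and 84.0 CPM in A, B and C) and astrocytes (9844, 8209 and 8666 CPM). For neurons, oligodendrocytes and T and NK cells it was not the highest. The part of these cells in the members' values was not tested.

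Per transcript length, the order in TBI 2022 was led by Il33 (68.1 ± 11.96 TPM, SD, n = 3), Il18 (25.6 ± 2.27 TPM) and Il1rap (15.5 ± 0.680 TPM), and Il1rl1 was last (0.280 ± 0.0721 TPM). With zileuton Il33 (81.9 ± 6.04 TPM) and Il18 (21.5 ± 2.28 TPM) led as well, and Il18 then overlapped Il1rap (18.7 ± 1.55 TPM).

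In the zileuton comparison the log2 ratio of Il1r2 to Il1r1 was the ratio whose groups did not overlap, at -4.51, -4.19 and -4.49 in TBI 2022 and -4.82, -4.63 and -6.42 with zileuton (difference -0.90, exact permutation p = 0.1, 0.267 adjusted over 8). Without zileuton C the difference was -0.33. The differences of the other ratios were -0.43 for Il1rn to Il1b (exact permutation p = 0.2, adjusted 0.4), -0.08 for Il18bp to Il18 (exact permutation p = 0.9, adjusted 0.9) and -0.19 for Il1rl1 to Il33 (exact permutation p = 0.6, adjusted 0.686), and all 3 overlapped between groups.

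None of the related lists held a gene that passed with zileuton. Of the other IL-1 family genes 5 were tested (median log2 fold change 0.13), of those for maturation and release 7 (-0.26), of the receptor signalling chain 16 (0.06) and of the IL-1 responsive genes 12 (-0.01). The lowest unadjusted p of these belonged to Ccl2, at 3.61 ± 0.894 CPM in TBI 2022 and 1.63 ± 0.896 CPM with zileuton (SD, n = 3). Its log2 fold change was -1.14 (SE 0.385, unadjusted p = 0.0176, edgeR adjusted p = 0.713). Casp1, the protease that cleaves interleukin-1 beta and interleukin-18, had a log2 fold change of -0.61 (SE 0.276, adjusted p = 0.713) and Casp4 one of -0.56 (SE 0.296, adjusted p = 0.715).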

How the data were processed

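Total RNA from mouse brain was sequenced as paired-end poly(A) libraries by the study, 12 in all. The authors deposited raw counts per gene with FPKM for the 6 libraries of 2018, and estimated counts with TPM for the 6 of 2022. The submitters' processing notes name HISAT2, featureCounts, Subread, DESeq2 and GRCm39 without versions or roles. How the estimated counts were made is not given in the sources used here. They were rounded to whole numbers, which the test, planned for raw counts, required. Columns of 2022 could be tied to a group but not to a single label, and their libraries are called A, B and C.

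Counts were tested with edgeR 4.0.16 (R 4.3.3; TMM scaling, filterByExpr, quasi-likelihood test, Benjamini-Hochberg adjustment, threshold 0.05), checked on simulated data. Standard errors are the log2 fold change divided by the root of F. DESeq2 1.42.0, limma 3.58.1 on log2(FPKM or TPM + 1 or + 0.1), other filters (at least 10 counts in every library among them), gene length, the two-sample test of the study and leaving out each library were alternatives. Ratios were tested with scipy 1.17.1. Markers are given as levels. All libraries of a group were taken as separate mice, as the methods give 3 mice per group. Named were all members, of each related list the 4 called genes with the largest change and the most expressed gene not called (with zileuton, the 2 lowest p as far as shown), of each marker list the most expressed gene, which is shown here only for T and NK cells, and Gfap. Other markers were named after their values were seen. The members and lists were chosen with earlier results of these data known. Depth set the floor: 3 counts were 0.0610 to 0.107 CPM.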

Additional observations from a re-analysis of the deposited data

How the results depend on the processing

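Of 180 values of the members' fold changes between TBI and sham under other settings, 165 kept their direction and side of the threshold, 8 lost the call and 7 gained one, and none reversed. The largest change came from the two-sample test that the study used, run here on FPKM. At its unadjusted p under 0.05, the study's threshold, it passed 4 members instead of 9. With adjustment over all genes, which the study did not state, it called 1 member (Il1r1) instead of 7, 2 of the other IL-1 family genes instead of 7, 3 of the maturation genes instead of 6, 5 of the IL-1 responsive genes instead of 10, and 2625 of all genes instead of 5479. The other IL-1 family count was 2 with limma at either pseudocount (1 or 0.1), 4 with counts divided by 2 and 4 with at least 10 counts in every library, where the IL-1 responsive count was 5, since fewer genes were then tested. The two-sample test and these limma fits tested only genes with a mean of at least 0.5 FPKM. Il36g, Il1rl2, Il18r1, Il18rap and Sigirr lay below it, as did the members Il1a and Il1rl1, so none of these could be called there. For the other changes in count the cause was not tested. Leaving out 1 library gave 6 to 8 members called. Map3k7 reversed to -0.007 with DESeq2's size factors, -0.008 with DESeq2 and -0.002 without the filter, and ranged from -0.016 to 0.051 without 1 library. Nlrc4 ranged from -0.018 to 0.396 and Ptgs2 from -0.307 to 0.013 without 1 library, and the Il1r2 to Il1r1 ratio from -0.152 to 0.978.

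In the zileuton comparison no member was called under any setting, while of all genes DESeq2 called 27, limma 4 or 3 (pseudocount 1 or 0.1) and the fit without a filter 4. Removing the trend in gene length turned Il1rl1 to -0.007 and Il1rapl1 to -0.011. Without 1 library, Il1rl1 ranged from -0.187 to 0.319, Il1b from -0.834 to 0.171, the Il18bp to Il18 ratio from -0.368 to 0.081 and the Il1rl1 to Il33 ratio from -0.376 to 0.097. The Il1rn to Il1b ratio was 0.022 on TPM. Without zileuton A, 1909 genes had an unadjusted p under 0.05, against 1186 with it, and 4 members had one, against 1 with it.

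Samples that share a number did not deviate together (correlations -0.023, -0.094 and -0.033 for sham and TBI, and -0.28, 0.063 and -0.282 in 2022). For unlike numbers the correlation reached 0.13 (sham 3 and TBI 2) and 0.313 (TBI 2022 A and zileuton C). With 3 libraries in each group these values cannot exclude pairing, and the numbers of 2022 are those of columns, not of labels. With the replicate number as a block, 7 members and 4337 genes were called between TBI and sham, and 0 members with zileuton, where 729 genes had an unadjusted p under 0.05.

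The settings for the lists and for all genes were added after the data were seen. In the zileuton comparison Il1r2 and Il1rl1 had the fewest counts, 47 against 25 and 73 against 77 in all.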
